A study of Mus musculus with 24 samples.

Results

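Cells lacking both REV-ERB receptors were compared with themselves 12 h apart in the circadian cycle. The comparison used 8 of the 24 RNA-seq libraries of the series and 8 of the 12 KO libraries. On one side stood the 4 KO libraries taken at hours 8 and 12 of the cycle (32 and 56 h after dexamethasone for hour 8, 12 and 36 h for hour 12). On the other side stood the 4 KO libraries of hours 20 and 0 (20 and 44 h for hour 20, 24 and 48 h for hour 0). The hour of the cycle is the time after dexamethasone with whole periods of 24 h taken off, so it is a clock of the treatment and not of the animal's day.

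The KO cells are mouse embryonic stem (ES) cells with a Per2::Luciferase knock-in that are also Rev-erba/Rev-erbb deficient, and the WT cells are the control knock-in cells with both receptors, so the luciferase allele of Per2 is shared by every library. The deletions were made in sequence, first in Rev-erbβ and then in Rev-erbα, each with a pair of guide RNAs around 1 exon. The KO cells descend from picked colonies, so that the genotype cannot be told apart from the line. Cells were grown as embryoid bodies and were differentiated to day 28 before 100 nM of the glucocorticoid dexamethasone, which sets cultured cells to a common clock time, was given. RNA of 3 embryoid bodies was pooled for each library, and each time point had 1 library per genotype, so the 4 libraries of a side are 2 hours of the cycle on each of 2 days and their spread holds the change between those hours as well as noise. The sources used here do not say whether the time points came from separate differentiations. Errors are SD for means and SE for log2 differences, n is 4 libraries per side unless another number is given, and p-values measure the spread between these libraries.

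The mammalian clock is a loop of transcription. BMAL1 (gene Arntl) pairs with CLOCK or NPAS2 on E-box elements and drives the Period and Cryptochrome genes, whose proteins return to the nucleus and repress that pair. The same pair drives Nr1d1 and Nr1d2, which encode REV-ERBα and REV-ERBβ, repressors that act on elements shared with the activating ROR receptors and are known for shaping the rhythm of Bmal1. The PAR bZIP factors DBP, TEF and HLF act on D-box elements and carry the rhythm to output genes, and NFIL3 represses through the same elements.

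Promoter sequences of 5 genes are shown first, all of them with matches to the motifs given below. Each is the 250 bases before the annotated start in RefSeq (GRCm38.p6, the same GRCm38 build as the files), printed 5′ to 3′ on the strand of the gene. Capitals mark matches, on either strand, to the E-box CACGTG, the related CACGTT, the D-box TTANNTAA, the pattern TNGGTCA and the CRE TGACGTCA. TNGGTCA allows any base at N and is looser than the REV-ERB and ROR element, so a match need not be such an element.
Cry1 (chr10:85185055-85185304, minus strand): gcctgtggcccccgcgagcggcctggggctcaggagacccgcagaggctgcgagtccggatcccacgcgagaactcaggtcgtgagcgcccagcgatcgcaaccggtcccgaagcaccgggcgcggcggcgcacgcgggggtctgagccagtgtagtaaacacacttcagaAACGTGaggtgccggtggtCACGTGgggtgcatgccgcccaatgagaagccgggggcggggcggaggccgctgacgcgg
Per3 (chr4:151044666-151044915, minus strand): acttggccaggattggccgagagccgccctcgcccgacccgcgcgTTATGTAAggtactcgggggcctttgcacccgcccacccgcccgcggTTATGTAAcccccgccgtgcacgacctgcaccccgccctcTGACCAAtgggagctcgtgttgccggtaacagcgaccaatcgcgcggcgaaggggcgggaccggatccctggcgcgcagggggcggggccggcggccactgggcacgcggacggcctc
Tef (chr15:81802423-81802672, plus strand): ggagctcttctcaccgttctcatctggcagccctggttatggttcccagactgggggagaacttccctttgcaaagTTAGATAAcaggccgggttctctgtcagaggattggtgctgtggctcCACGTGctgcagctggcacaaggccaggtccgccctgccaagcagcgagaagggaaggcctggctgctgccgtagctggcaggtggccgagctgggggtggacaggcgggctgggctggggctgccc
Tspan4 (chr7:141476130-141476379, plus strand): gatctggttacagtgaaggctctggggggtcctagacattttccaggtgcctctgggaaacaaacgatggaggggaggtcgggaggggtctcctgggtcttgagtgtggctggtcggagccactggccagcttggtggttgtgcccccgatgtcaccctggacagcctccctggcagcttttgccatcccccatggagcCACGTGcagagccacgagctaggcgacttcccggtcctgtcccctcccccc
Arntl (chr7:113207215-113207464, plus strand): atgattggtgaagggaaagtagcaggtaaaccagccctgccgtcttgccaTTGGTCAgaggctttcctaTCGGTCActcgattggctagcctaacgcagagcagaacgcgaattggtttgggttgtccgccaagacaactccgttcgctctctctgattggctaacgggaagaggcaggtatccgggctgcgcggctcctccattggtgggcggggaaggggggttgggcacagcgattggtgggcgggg
The Cry1 window held an E-box at position -60 from the start, counted at the first base of the match, and a CACGTT at -79. In Per3 there were D-boxes at -205 and -158 and a TNGGTCA match at -118. Tef had an E-box at -127 and a D-box at -174, and Tspan4 an E-box at -51. The Arntl window held TNGGTCA matches at -200 and -181, which read TTGGTCA and TCGGTCA. Windows were found for 24 of 31 genes looked up, and Per2 was not among them. Some, such as those of Dbp, Nr1d2, Npas2 and Clock, held none of these motifs. Of the 24, 6 held an E-box, 4 CACGTT, 3 a D-box, 4 a TNGGTCA match and 1, that of Hlf at -9, a CRE. Among all 32851 windows of the same length the shares were 6.02%, 3.85%, 5.43%, 9.19% and 1.55%. None of these motifs overlaps another in the printed windows, and a match is a description of the letters only.

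The deposited values are RPKM, fragments of a gene per kilobase of exon and scaled to the total of the library. From 6235099.5 to 9868080 fragments lay on exons of the table in the 8 libraries, which is 45.2% to 45.7% of the totals. Gene-level values cover every exon of Nr1d1 and Nr1d2, so they cannot show the loss of 1 exon, and the genotype is taken here from the labels. The paper's evidence of the deletions is sequencing of genomic DNA and cDNA, and quantitative PCR within the targeted exons. Both transcripts were detected in all 8 KO libraries. The cells were labelled differentiated ES cells, and markers of many lineages were present: smooth muscle and fibroblast markers summed to between 2119 and 2815 RPKM per library and leukocyte markers to between 871 and 1092 RPKM. The 16 pluripotency markers summed to between 16.9 and 24.5 RPKM, and none was at 0 in every library. Only 7 of the 16 passed the filter on low values given below. In such bulk samples fewer cells of a type and less RNA per cell cannot be told apart.

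Period and Cryptochrome genes made up the clearest difference between the sides. Of the 5 genes, 4 had higher means at hours 8 and 12 with an unadjusted p under 0.05, and Per1 was nearly level. Among all 14763 genes expressed in KO (mean of over 0.5 RPM, which is RPKM without the scaling to length, in the 12 KO libraries) 1.33% were higher by the same rule. The test was limma on log2(RPKM + 0.1), and after Benjamini-Hochberg adjustment none of the 14763 genes (0.00%) had a p under 0.05, so each value below is reported as a difference that did not pass the adjustment over all genes. An exact two-sided permutation test of mean RPKM over the 8 libraries was added for single genes, and the smallest p it can give with its 70 splits is 0.0286. Every gene whose sides do not overlap gets this p, so for such genes it restates the separation and is no second support.

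Per2, a repressor whose luciferase fusion reports the rhythm in these cells, lies at chr1:91415982-91459328 (GRCm38). It was at 3.92, 3.54, 2.5 and 2.73 RPKM in the 12, 32, 36 and 56 h libraries and at 1.14, 1.28, 1.33 and 1.59 RPKM in the 20, 24, 44 and 48 h libraries. The sides did not overlap, and the lowest library of hours 8 and 12, at 36 h, was still above the highest of hours 20 and 0, at 48 h. The means were 3.17 ± 0.671 and 1.34 ± 0.19 RPKM (SD), a ratio of 2.37. On the log2 scale the difference was 1.17 ± 0.15 (SE), with an unadjusted p of 2.13e-05 and an adjusted p of 0.241 (limma). By the exact permutation test p was 0.0286, the smallest possible.

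Cry1, the partner of PER2 in repression (chr10:85131700-85185054), was at 7.04, 5.99, 6.13 and 5.14 RPKM in the 12, 32, 36 and 56 h libraries against 3.14, 3.24, 3.74 and 3.93 RPKM in the 20, 24, 44 and 48 h libraries. Here too the sides were apart in every library, and the mean of hour 12 (6.58 RPKM) was above that of hour 8 (5.57 RPKM). The log2 difference was 0.77 ± 0.11 (means 6.08 ± 0.776 and 3.51 ± 0.379 RPKM, ratio 1.73), with an unadjusted p of 3.27e-05 and an adjusted p of 0.241 (limma). Per2 and Cry1 had the smallest p of the 14763 genes. Under the alternatives tried, their adjusted p ranged from 0.0685 to 0.9999 and their unadjusted p from 5.76e-06 to 0.000177 (limma). These ranges leave out the within-day fits and the 24 h cosine, which are given below. In the cosine both genes had an adjusted p under 0.05 (limma), and within a day neither had.

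Per3 (chr4:151003655-151044665) was low, at 0.703, 1.68, 0.944 and 1.21 RPKM in the 12, 32, 36 and 56 h libraries and 0.429, 0.702, 0.55 and 0.837 RPKM in the 20, 24, 44 and 48 h libraries. The sides overlapped: the 12 h library was below that of 48 h, while both hour 8 libraries were above every other. Its log2 difference was 0.73 ± 0.26 (limma p of 0.0174, exact permutation p = 0.0571). For Cry2 (chr2:92403647-92434069), the second Cryptochrome, the values were 5.48, 4.26, 4.74 and 5.17 RPKM and 3.74, 4.47, 3.94 and 4.6 RPKM in the same order. They overlapped as well, since the 32 h library was below those of 24 and 48 h. The difference of 0.22 ± 0.10 on the log2 scale had a p of 0.0442 by limma and 0.114 by the exact permutation test. Cry2 shares its locus with D930015M05Rik on the other strand, and the library kit does not mark strand, so reads of the pair cannot be told apart.

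Per1, a Period gene that glucocorticoids are known to induce, was at 17.6, 17.6, 14.3 and 17.1 RPKM and 16, 16.8, 16.2 and 14.9 RPKM in the same order of libraries. The 36 h library was the lowest of all 8, so the sides overlapped. Its log2 difference was 0.06 ± 0.07, with a 95% confidence interval from -0.11 to 0.22, so a difference of the size seen for Per2 or Cry1 lies outside the interval. Summed over the 5 genes, the level was 28.7 to 34.7 RPKM at hours 8 and 12 and 24.4 to 26.5 RPKM at hours 20 and 0.

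PAR bZIP factors followed the Period and Cryptochrome genes in part. Hlf and Tef were higher at hours 8 and 12 in every library, Dbp was higher on average with sides that overlapped widely, and Nfil3 was nearly level. Hlf (chr11:90336535-90390917) was at 1.4, 1.89, 1.1 and 1.53 RPKM in the 12, 32, 36 and 56 h libraries and at 0.604, 0.741, 0.713 and 1.06 RPKM in the 20, 24, 44 and 48 h libraries. The gap between the sides was small, from the 36 h library to that of 48 h, but no library crossed it. Its log2 difference of 0.85 ± 0.19 had a p of 0.00123 (limma). For Tef (chr15:81802673-81826863) the values were 6.54, 8.34, 5.6 and 7.01 RPKM and 3.27, 5.4, 4.05 and 5.38 RPKM, with the 36 h library just above that of 24 h. The log2 difference was 0.61 ± 0.17 (limma p of 0.00534), and both genes reached the smallest exact permutation p of 0.0286.

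Dbp, at 2.82, 6.43, 3.65 and 7.24 RPKM in the 12, 32, 36 and 56 h libraries and 1.81, 4.53, 2.91 and 4.13 RPKM in the 20, 24, 44 and 48 h libraries, showed a split within each side. Both hour 8 libraries were above all others, whereas the hour 12 libraries lay below those of hour 0. The log2 difference was 0.55 ± 0.34 with a p of 0.138 (limma), and it was 0.30 without the 20 h library and 0.35 without that of 56 h. Dbp overlaps Sphk2 on the other strand. Nfil3, the repressor of the same D-box elements, had means of 16.1 ± 0.37 and 15.7 ± 1.37 RPKM and a log2 difference of 0.04 ± 0.06 (95% confidence interval -0.10 to 0.18).

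**Figure D1:**
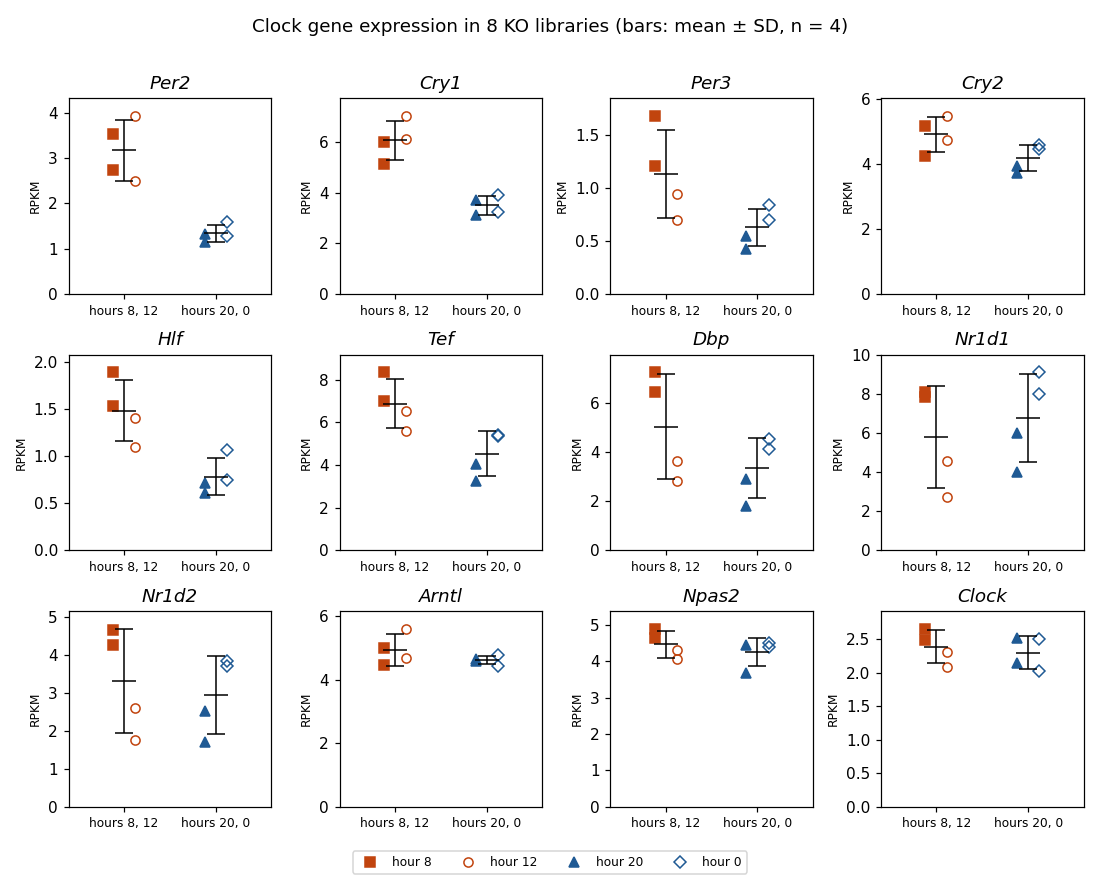
RPKM of 12 clock genes in each of the 8 KO libraries, with hours 8 and 12 in red and hours 20 and 0 in blue, marker shape giving the hour and black bars the mean ± SD of 4 libraries on axes that start at 0. Per2, Cry1, Hlf and Tef separate the sides in every library, Dbp, Nr1d1 and Nr1d2 separate the hours within each side, and Arntl, Npas2 and Clock stay nearly level.

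The receptor genes themselves did not separate the sides, and their hours within a side were far apart. Nr1d1, which encodes REV-ERBα, was at 8.11 and 7.87 RPKM at hour 8 but at 2.73 and 4.56 RPKM at hour 12. On the other side it was at 9.11 and 8.02 RPKM at hour 0 and at 4.0 and 5.99 RPKM at hour 20. The means of the sides, 5.82 ± 2.62 and 6.78 ± 2.26 RPKM, differed by -0.28 ± 0.35 on the log2 scale (95% confidence interval -1.07 to 0.51), a value that was 0.034 without the 12 h library. Nr1d2, which encodes REV-ERBβ, split the same way, with 4.47 RPKM as the mean of hour 8, 2.19 of hour 12, 2.11 of hour 20 and 3.78 of hour 0. Its log2 difference was 0.14 ± 0.33 (95% confidence interval -0.60 to 0.88). Nr1d1 overlaps Thra and AK053029 on the other strand. Rora, an activator on the same elements, had means of 1.4 ± 0.166 and 1.31 ± 0.115 RPKM and a log2 difference of 0.08 ± 0.11. Rorb was under the filter and was at no more than 0.0593 RPKM in any of the 8 libraries.

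The activators were nearly level. Arntl, the usual target of REV-ERB repression, was at 5.61, 5.01, 4.67 and 4.47 RPKM in the 12, 32, 36 and 56 h libraries and at 4.59, 4.45, 4.66 and 4.77 RPKM in the 20, 24, 44 and 48 h libraries. Only the 12 and 32 h libraries were above all those of hours 20 and 0. Its log2 difference was 0.09 ± 0.08, with a 95% confidence interval from -0.08 to 0.26. Npas2 differed by 0.07 ± 0.09 (95% confidence interval -0.12 to 0.27) and Clock by 0.05 ± 0.11 (95% confidence interval -0.18 to 0.29). Arntl2, a paralogue of Arntl, was low at 0.527 ± 0.215 and 0.567 ± 0.0492 RPKM and had the widest interval of the 4, from -0.60 to 0.32. None of the 4 activators had a p under 0.05 in KO, nor in WT at the same hours (limma).

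E-box repressors other than the Period and Cryptochrome genes did not separate the sides either. Bhlhe40 and Bhlhe41, which encode DEC1 and DEC2, differed by -0.03 ± 0.06 and 0.07 ± 0.15 on the log2 scale. Ciart, a repressor of the CLOCK and BMAL1 pair, had means of 1.05 ± 0.311 and 0.908 ± 0.258 RPKM (log2 difference 0.19 ± 0.22, 95% confidence interval -0.30 to 0.68), on an average of 24.1 fragments per library. The kinases and ubiquitin ligases that set the lifetime of clock proteins were level: of 9 genes, 0 had a p under 0.05 (limma), and their log2 differences ran from -0.06 to 0.08.

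Over the 20 genes of the activators, Period and Cryptochrome genes, E-box repressors, receptors and D-box factors, 19 passed the filter on low values. Of these, 6 had an unadjusted p under 0.05, all higher at hours 8 and 12 (Per2, Per3, Cry1, Cry2, Tef and Hlf), against 2.41% of all genes in either direction. Sides that did not overlap were found for 4 (Per2, Cry1, Tef and Hlf), against 1.70% of all genes. The median log2 difference was 0.09 over the 19 genes and 0.0015 over all genes tested. The lists were chosen with results of these data known, so these counts describe the lists and are not independent evidence.

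The 4 KO libraries that neither side used place these genes within the cycle. At hour 4 (28 and 52 h) Per2 was at 2.96 and 2.45 RPKM, and at hour 16 (16 and 40 h) at 2.0 and 1.48 RPKM, which at each hour lies between the means of the sides. Dbp had its highest mean at hour 4, with 7.16 and 7.47 RPKM, against 1.71 and 2.52 RPKM at hour 16. Nr1d1 was likewise highest at hour 4, at 9.65 and 9.74 RPKM. Fitted with a cosine of 24 h over all 12 KO libraries, the peaks came in the order Nr1d1 (hour 3.15), Nr1d2 (4.44), Dbp (5.42), Tef (6.32), Per3 (6.39), Hlf (7.67), Per2 (8.37) and Cry1 (9.68). These 8 were among the 13 genes (0.0881% of those tested) with an adjusted p under 0.05 in that fit (limma), with adjusted p from 0.0012 to 0.0362. At an unadjusted p under 0.05 the cosine called 1361 genes (9.22%). The peaks of Per2 and Cry1 lie nearest to hour 10, midway between the hours of the first side, and those of Nr1d1 and Nr1d2 lie nearly midway between the sides.

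**Figure D2:**
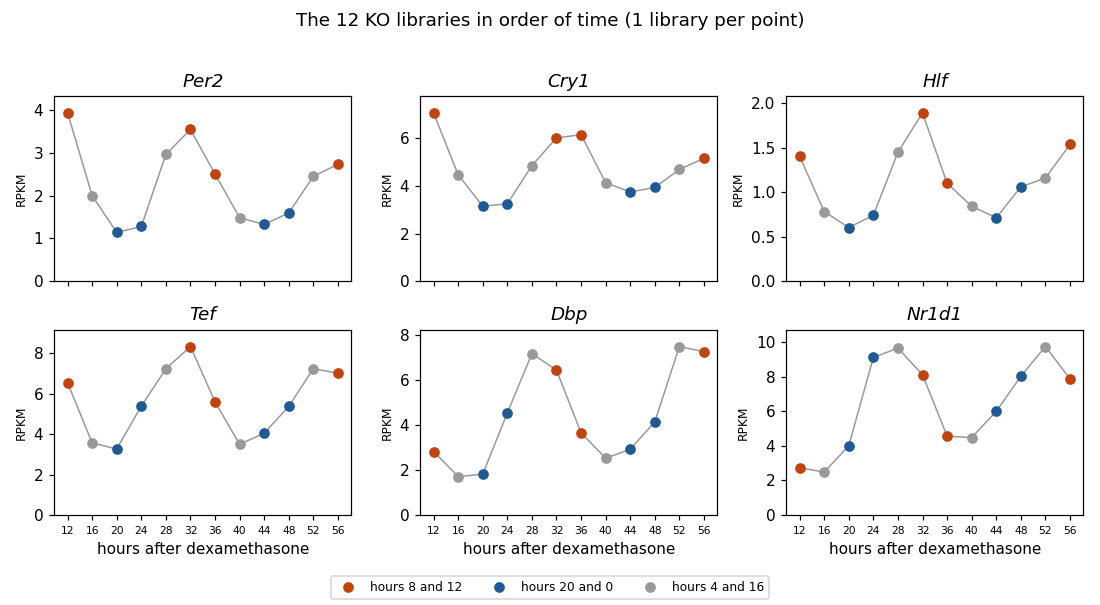
RPKM of 6 clock genes in the 12 KO libraries against hours after dexamethasone, with red points for hours 8 and 12, blue for hours 20 and 0, and grey for the hours 4 and 16 that the comparison left out. Per2 and Cry1 have red points at the crests and blue points in the troughs, whereas Dbp and Nr1d1 crest at grey points of hour 4.

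The comparison was repeated within each day, 12 and 32 h against 20 and 24 h for the first and 36 and 56 h against 44 and 48 h for the second, with 2 libraries a side. Per2 differed by 1.55 on the log2 scale in the first day and by 0.80 in the second, and Cry1 by 1.0 and 0.54. Hlf went from 1.17 to 0.53 and Tef from 0.80 to 0.42. The signs were the same and the second difference was smaller for these 4 genes, whereas for Dbp and Cry2 the days were close (0.55 and 0.55, 0.23 and 0.21). All 6 clock genes with a p under 0.05 had the same sign on both days, which their choice by a p over both days favours. Of the 19 tested clock genes 12 did, and among those that did not, Arntl went from 0.23 to -0.04, Npas2 from 0.17 to -0.03 and Rora from 0.25 to -0.10. Over all 14763 genes, whose values share the libraries and depth of a day and do not count as replicates, Pearson's r between the days was -0.13 and Spearman's rho was 0.0022, with the same sign for 49.98%.

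**Figure D3:**
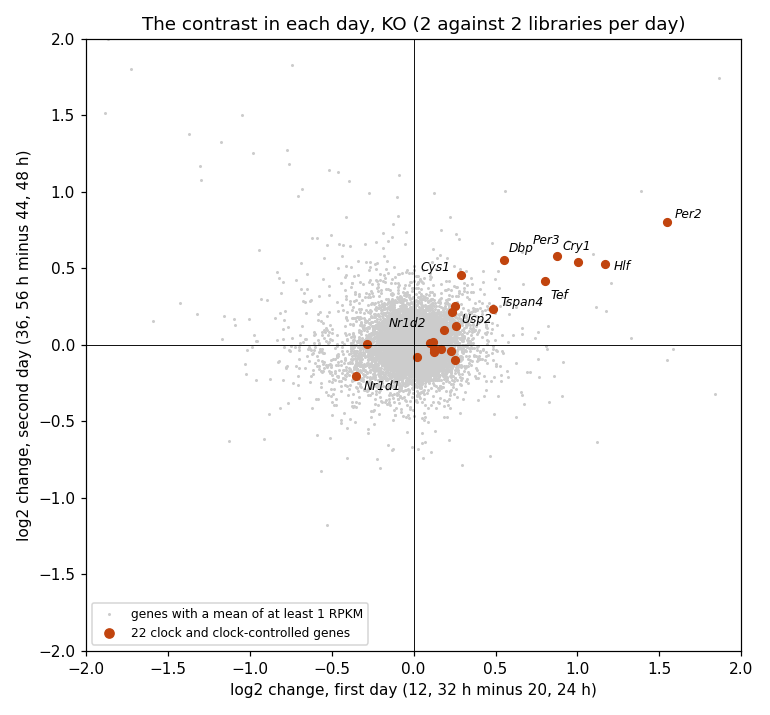
Log2 difference of RPKM + 0.1 in the second day (vertical axis) against the first day (horizontal axis) in KO, for 11853 genes with a mean of at least 1 RPKM (grey) and for 22 clock and clock-controlled genes (red). Per2, Hlf, Cry1, Per3, Tef and Dbp lie at the upper right away from the grey cloud, and 11 genes fall outside the axes.

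Clock-controlled output genes showed smaller differences. Of 36 genes in the list, 34 were in the table and 30 passed the filter, and 4 of the 30 had a p under 0.05, all higher at hours 8 and 12, against 1.33% of all genes. They were Tspan4, Usp2, Cys1 and Herpud1. Tspan4, a tetraspanin of the cell surface (chr7:141476380-141493427), was at 67.2, 60.03, 55.7 and 52.9 RPKM in the 12, 32, 36 and 56 h libraries and at 43.3, 47.5, 48.8 and 43.6 RPKM in the 20, 24, 44 and 48 h libraries. Its sides did not overlap, and its log2 difference was 0.36 ± 0.08 (limma p of 0.00107, exact permutation p = 0.0286). Tspan4 overlaps Chid1 on the other strand. Usp2, a deubiquitinase known to act on clock proteins, was at 4.43, 5.08, 4.74 and 5.1 RPKM and 3.78, 4.14, 3.97 and 4.25 RPKM, with the 12 h library the lowest of its side. Its log2 difference was 0.25 ± 0.07 (limma p of 0.00505, exact permutation p = 0.0286), and that of Cys1, which encodes the ciliary protein cystin, was 0.37 ± 0.10 (limma p of 0.00541, exact permutation p = 0.0286). Herpud1, a gene of protein quality control in the endoplasmic reticulum, differed by 0.11 ± 0.05 (limma p of 0.0448, exact permutation p = 0.0571), with sides that overlapped by a small step. The median over the 30 genes was 0.05. The other genes tested had a p above 0.05 and ran from -0.04, with Nampt, of NAD salvage, at 0.0021, to 0.27 for Avpr1a, a vasopressin receptor, and 0.24 for Tsc22d3, a gene induced by glucocorticoids, both above the value of Herpud1.

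The same hours in WT served as the background. Of 14944 genes expressed in WT, 0 (0.00%) passed the adjusted p and 614 (4.11%) had an unadjusted p under 0.05 (limma), against 356 (2.41%) in KO. Per2 had means of 3.92 ± 0.862 and 1.77 ± 0.424 RPKM in WT, a log2 difference of 1.11 ± 0.20, and Cry1 had 5.15 ± 0.61 and 3.0 ± 0.401 RPKM, a difference of 0.76 ± 0.11. KO and WT were close for both genes. The difference between the genotypes was 0.06 for Per2 (95% confidence interval -0.51 to 0.64) and 0.01 for Cry1 (95% confidence interval -0.33 to 0.35), by the interaction term of limma. For Hlf it was 0.30 (-0.25 to 0.85), for Tef -0.01 (-0.49 to 0.47) and for Cry2, larger in WT at 0.43 ± 0.08, -0.20 (-0.48 to 0.07). Usp2, level in WT at 0.01 ± 0.08, differed between the genotypes by 0.24 (0.01 to 0.47). Nr1d1 was -0.44 ± 0.17 in WT and Nr1d2 -0.40 ± 0.30, against -0.28 and 0.14 in KO, and the intervals of their differences ran from -0.76 to 1.08 and from -0.50 to 1.58. The activators in WT were at 0.04 ± 0.14 for Arntl, -0.17 ± 0.13 for Npas2, 0.03 ± 0.09 for Clock and -0.07 ± 0.17 for Arntl2. Their differences between the genotypes had intervals of -0.29 to 0.40, -0.10 to 0.58, -0.26 to 0.31 and -0.64 to 0.51 in that order. None of these interaction terms passed the adjustment over 15112 genes.

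**Figure D4:**
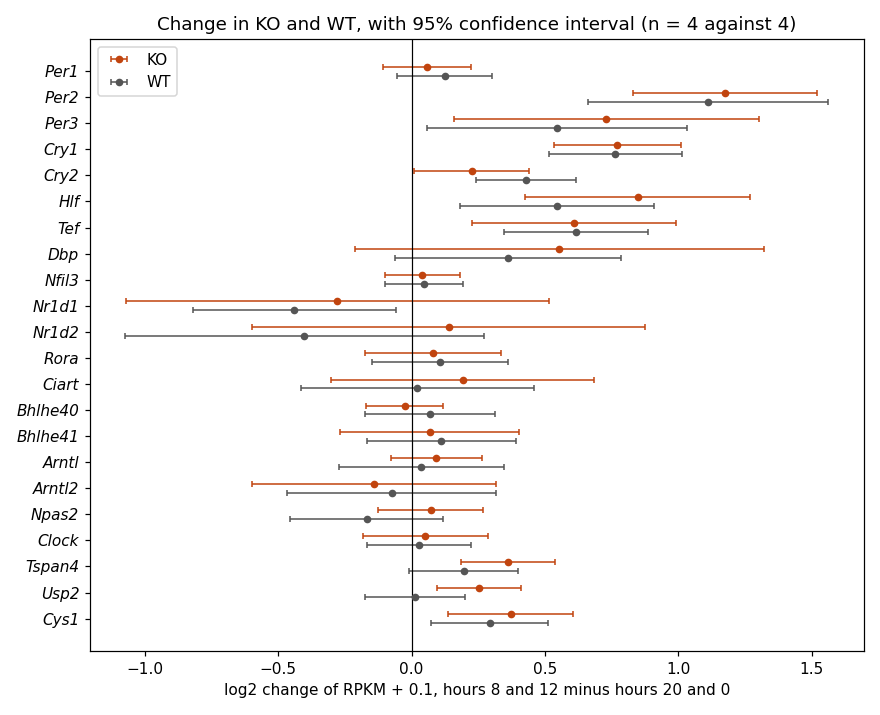
Log2 difference of RPKM + 0.1 between hours 8 and 12 and hours 20 and 0 for 22 clock and clock-controlled genes in KO (red) and WT (grey), points giving the limma estimate and bars its 95% confidence interval, with 4 libraries a side. The intervals of KO and WT overlap for every gene drawn, and those of Per2, Per3, Cry1, Cry2, Hlf, Tef, Tspan4, Usp2 and Cys1 in KO lie above 0.

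Only 1 of the 15112 genes (0.00662%) had an adjusted p under 0.05 for the difference between the genotypes, and it was the low entry Mit1/Lb9, which overlaps Copg2 on the other strand. It was at 0.132, 0.151, 0.0997 and 0.13 RPKM in the 12, 32, 36 and 56 h KO libraries and at 0.337, 0.166, 0.312 and 0.358 RPKM in the 20, 24, 44 and 48 h KO libraries, on an average of 11.1 fragments. The order was turned in WT, with means of 0.605 ± 0.144 and 0.143 ± 0.080 RPKM. The difference of -2.32 on the log2 scale had an adjusted p of 0.0382 (limma). However, 0 genes were called in 13 of the 16 fits that leave out 1 library and under 5 of the 12 other alternatives. Of these 5, the minimum of 1 RPKM leaves Mit1/Lb9 out of the test, so it says nothing of this gene. At an unadjusted p under 0.05 there were 544 genes (3.60%). Among genes with a mean of at least 1 RPKM, Vegfc, a growth factor of lymphatic vessels, had the smallest p for the difference (0.000852, limma), with 0.21 ± 0.07 in KO and -0.17 ± 0.06 in WT. Agtr1a, an angiotensin II receptor, was at 10.3, 10.4, 9.7 and 10.9 RPKM and 8.05, 8.78, 9.07 and 9.48 RPKM in the KO libraries, sides that did not overlap, with a log2 difference of 0.22 ± 0.06 in KO and -0.17 ± 0.08 in WT. Nnat, an imprinted gene that overlaps Blcap on the other strand, was level in KO (-0.04 ± 0.10) and 0.74 ± 0.16 in WT. Scaf1 had -0.05 ± 0.05 in KO and 0.16 ± 0.04 in WT.

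Over all genes tested, 197 (1.33%) were higher and 159 (1.08%) lower at hours 8 and 12 by an unadjusted p under 0.05 (limma), counts that include the clock genes above. Both directions together made up 2.41%, fewer than the threshold of 0.05 would give with no difference at all. Sides that did not overlap made up 1.70%, under the share of 0.0286 that random splits give. The genes below are therefore given as values only. Of the genes outside the clock lists with the smallest p and a mean of at least 1 RPKM, those higher at hours 8 and 12 were of mixed function. Clec4a3, a lectin of myeloid cells, was at 1.73, 1.86, 1.61 and 1.7 RPKM in the 12, 32, 36 and 56 h libraries and 1.18, 1.24, 0.924 and 1.29 RPKM in the 20, 24, 44 and 48 h libraries. All 4 of one side were above all 4 of the other, the log2 difference was 0.55 ± 0.11 (limma p of 0.000834, exact permutation p = 0.0286), and in WT it was -0.22 ± 0.22. Car11, a carbonic anhydrase-related protein, differed by 0.35 ± 0.08, Rhpn2 by 0.30 ± 0.07, and Ceacam1, a cell adhesion molecule, by 0.42 ± 0.11. Cpeb1, a regulator of cytoplasmic polyadenylation, was at 1.97 ± 0.107 and 1.49 ± 0.174 RPKM, a log2 difference of 0.39 ± 0.10 in KO and -0.11 ± 0.12 in WT. AK006921 and 1810010H24Rik, which have no function that is known with certainty, differed by 0.27 ± 0.06 and 0.57 ± 0.13. In each of these 7 genes the sides did not overlap, against 1.02% of all genes in this direction, and the choice by p favours such genes.

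Genes lower at hours 8 and 12 were of mixed function too, and all but Tpm2 of the 12 with the smallest p and a mean of at least 1 RPKM had sides that did not overlap, against 0.677% of all genes in this direction. Nxn, the redox protein nucleoredoxin, was at 15.3, 15.2, 15.7 and 14.6 RPKM in the 12, 32, 36 and 56 h libraries and 16.8, 18.2, 17.1 and 17.1 RPKM in the 20, 24, 44 and 48 h libraries. The step was small but no library crossed it, and the log2 difference was -0.19 ± 0.05 (limma p of 0.00291, exact permutation p = 0.0286). Abi3bp, which encodes an extracellular matrix protein, differed by -0.36 ± 0.09 and the aggrecan-cleaving protease gene Adamts4 by -0.31 ± 0.09. Tpm2, a tropomyosin, was at 32.9, 34.1, 40.8 and 33.5 RPKM and 44, 42.1, 40.8 and 40.6 RPKM. The 36 h library was at the level of those of 44 and 48 h, so the sides of Tpm2 overlapped (log2 difference -0.25 ± 0.07, limma p of 0.00594, exact permutation p = 0.0857). Lmod1, a leiomodin of smooth muscle, did not overlap (6.36 ± 0.137 and 7.33 ± 0.473 RPKM, log2 difference -0.20 ± 0.06). Bok, a member of the BCL2 family, differed by -0.32 ± 0.09, Dynap by -0.47 ± 0.13 and Srfbp1 by -0.22 ± 0.06. The short noncoding entries AK201601, AK213652 and BC127131 were also among the smallest p, and each overlaps an entry on the other strand.

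Pathway lists outside the clock held few such genes. Over the 15 pathway lists 4 of 372 genes tested had an unadjusted p under 0.05, against 2.41% of all genes, and their median was -0.02. Sgk1, a kinase induced by glucocorticoids, was the only 1 of 25 glucocorticoid targets, at 18.9 ± 1.04 and 16.9 ± 0.988 RPKM (log2 difference 0.16 ± 0.06). Gsta3, a glutathione transferase, was the only 1 of 19 Nrf2 targets (13.1 ± 1.15 and 10.03 ± 1.32 RPKM, 0.39 ± 0.10), Herpud1 that of 30 genes of the amino acid and endoplasmic reticulum stress response, and Col6a1 that of 27 matrix genes (-0.16 ± 0.07). Serum response, heat shock, cold-inducible, S and M phase, cell-cycle brake, cholesterol and fatty acid, glycolysis and hypoxia, interferon, cytokine, ribosomal protein and oxidative phosphorylation lists had 0 genes each. The median was -0.16 for the 20 interferon-induced genes, of which 3 were above 0, and 0.09 for the 10 cold-inducible genes, of which 10 were above 0. All 46 ribosomal protein genes were below 0, with a median of -0.06, but with quantile normalization 5 of them were above 0 and the median was -0.03. The medians in WT were 0.15, -0.0041 and -0.04 for these 3 lists.

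**Figure D5:**
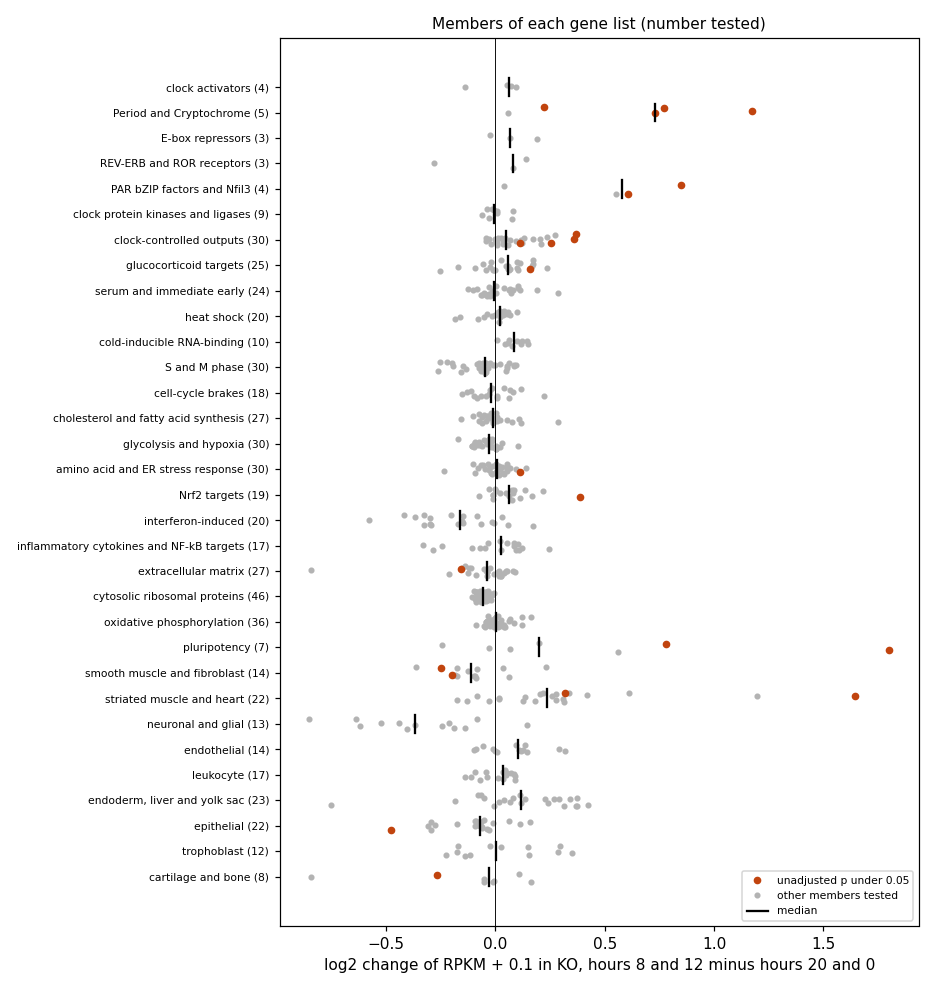
Log2 difference of RPKM + 0.1 in KO between hours 8 and 12 and hours 20 and 0 for the members of each gene list, with the number tested in brackets, red for an unadjusted p under 0.05, grey for the other members and a black bar for the median. The Period and Cryptochrome list (median 0.73) and the D-box factors (median 0.58) lie to the right of the other lists.

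Cell type markers were read the same way, and 8 of the 151 tested over 11 lists (0 of the erythroid list passed the filter) had a p under 0.05, against 2.41% of all genes. Pou5f1, a pluripotency factor, was at 2.9, 1.73, 0.455 and 1.37 RPKM in the 12, 32, 36 and 56 h libraries and 0.346, 0.831, 0.294 and 0.0856 RPKM in the 20, 24, 44 and 48 h libraries, and at 0.0 RPKM at 28 h and 1.82 RPKM at 16 h. The level was low and uneven from library to library (log2 difference 1.80 ± 0.56, limma p of 0.00932, exact permutation p = 0.0571). Lin28a, an RNA-binding protein of the same cells, had means of 1.67 ± 0.608 and 0.888 ± 0.148 RPKM (0.78 ± 0.24). Of striated muscle genes, the troponin gene Tnnc1 differed by 0.32 ± 0.10. Myh3, an embryonic myosin heavy chain, was at 0.0737, 1.62, 0.737 and 0.0863 RPKM in the 12, 32, 36 and 56 h libraries and 0.0131, 0.0483, 0.0353 and 0.116 RPKM in the 20, 24, 44 and 48 h libraries. Its difference rested on the 32 and 36 h libraries, since those of 12 and 56 h lay within the range of the other side. The log2 difference was 1.64 ± 0.67 (exact permutation p = 0.114), 1.01 without the 32 h library, 0.53 with a pseudocount of 1 and 2.66 with voom weights. Lower at hours 8 and 12 were Tpm2 and Lmod1, given above, the keratin gene Krt17 and Sox9, a factor of cartilage. Krt17 was at 111, 54.8, 106 and 93.5 RPKM and 101, 119.9, 144 and 129.6 RPKM, sides that overlapped, with a log2 difference of -0.48 ± 0.21 (exact permutation p = 0.0857) that was -0.25 without the 32 h library. Sox9 differed by -0.27 ± 0.09, with sides that overlapped as well (exact permutation p = 0.0571). Summed, the pluripotency markers were at 18.66 to 24.5 RPKM at hours 8 and 12 and at 16.9 to 18.68 RPKM at hours 20 and 0, and the striated muscle markers at 123 to 156 and 99.2 to 144 RPKM. Smooth muscle and fibroblast markers were at 2119 to 2815 and 2265 to 2686 RPKM, leukocyte markers at 871 to 1092 and 902 to 1074 RPKM, and epithelial markers at 1097 to 1595 and 1491 to 1748 RPKM. Endoderm, liver and yolk sac markers ranged from 178 to 1465 RPKM at hours 8 and 12 and from 206 to 807 RPKM at hours 20 and 0. Neuronal and glial markers had a median of -0.37 with 0 of 13 genes at a p under 0.05, and of 0.76 with 5 of 13 in WT. Erythroid markers summed to between 0.244 and 12.6 RPKM at hours 8 and 12 and between 0.309 and 1.35 RPKM at hours 20 and 0. Endothelial, leukocyte, endoderm and trophoblast lists had 0 genes at a p under 0.05, with medians of 0.10, 0.04, 0.12 and 0.0011. In WT the endoderm list had a median of 0.84, with 10 of 23 genes at a p under 0.05, and the S and M phase list one of 0.44, with 3 of 30, against -0.05 and 0 of 30 in KO. The part of these lists in the differences between the genotypes, and of such cell types in those of the clock genes, was not tested.

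Libraries of a side were no more alike than libraries of opposite sides when all genes are taken. The log2 values, taken as deviations from the mean of each gene over the 8 libraries, gave a Pearson r that averaged -0.19 for the 12 pairs of a side and -0.10 for the 16 pairs across sides, across genes that are not independent replicates. Deviations of this kind sum to 0 for each gene, so their mean r is below 0. The median absolute deviation from the mean of the own side was 0.0873 to 0.107 at hours 8 and 12 and 0.0734 to 0.0809 at hours 20 and 0. Leaving out the 12 h library raised the number of genes at an unadjusted p under 0.05 from 356 to 666, and leaving out the 36 h library to 607, with 0 genes past the adjusted p in either case.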

How the data were processed

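The authors used Trimmomatic 0.36 for trimming the 101-bp read pairs and STAR 2.5.4b for alignment (GRCm38), kept a mapping quality of 10 or more, used HOMER for exon counts and deposited RPKM for 33079 genes; the versions come from the submitters' processing notes, and the use of strand is not given in the sources used here. RPKM, exonic length and library total gave whole multiples of 0.5 fragment for 100% of values (tolerance 0.01), which were used to describe depth and as weights in 1 alternative only.

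The 14763 genes that averaged over 0.5 RPM in the 12 KO libraries were tested with limma 3.58.1 (R 4.3.3, eBayes with trend) on log2(RPKM + 0.1), hours 8 and 12 minus hours 20 and 0, with no covariate and Benjamini-Hochberg adjustment (threshold 0.05). The pseudocount understates differences of low genes. WT was tested alike, and the difference between genotypes as an interaction over 16 libraries. No test for counts was used because the values are normalized. Exact permutation tests, list counts and the motif search used Python 3.11.15 with scipy 1.17.1, pandas 2.3.3 and numpy 2.4.6, and figures matplotlib 3.10.9. The limma fits were first tested on simulated data.

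Named are the genes of the first 5 clock lists, the 12 genes in each direction with the smallest p and a mean of at least 1 RPKM (no gene passed the adjusted p), the 2 members of each list with the smallest p, and the 5 genes with the smallest p for the difference between genotypes. Genes called by the cosine, Mit1/Lb9, and the output and marker genes under p 0.05 beyond 2 per list were named after their values were seen, as were Nampt, Avpr1a and Tsc22d3. Some of the genes that the rule names are not reported here. The comparison, members and lists were chosen with earlier results of these data known. Promoter windows come from RefSeq on GRCm38.p6. The numbers of the time points were checked as a pairing of KO and WT: the deviations of the 8 pairs from their group means had a mean r of 0.07 (-0.15 to 0.22), with 3 of 8 above 0.1, so they were not treated as pairs.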

Additional observations from a re-analysis of the deposited data

Results flagged for a closer look

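In groups of 4 libraries, 8 of 200 groups checked (both sides of 100 named genes) had 1 library far from the other 3 by Dixon's criterion (a gap above 0.829 of the range), and chance gives about 1 in 20 groups. At 36 h, Per1 was at 14.35 RPKM against 17.11 to 17.59 in the other libraries of its side, Arntl2 at 0.8468 against 0.3925 to 0.4538, and Tpm2 at 40.77 against 32.92 to 34.11. At 12 h, Hk2 was at 7.781 RPKM against 6.751 to 6.904 and Nnat at 58.44 against 45.52 to 47.72. Hand1 was at 8.482 RPKM at 32 h against 10.48 to 10.57, Npas2 at 3.682 at 20 h against 4.393 to 4.497, and Ndufa4 at 72.09 at 48 h against 79.78 to 81.08. Mit1/Lb9 differed between the genotypes by -2.32 on the log2 scale (adjusted p = 0.0382, limma), lower at hours 8 and 12 in KO and higher in WT, where the sides did not overlap in either genotype.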

How the results depend on the processing

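No gene passed the adjusted p in KO under any other pseudocount, filter, scaling, day block, linear trend, wider set of libraries, voom weights or variance model, within either day, or on leaving out any library; a 24 h cosine over all 12 KO libraries, which is another test and uses more libraries, called 13 genes, 8 of them of the clock lists. The number at an unadjusted p under 0.05 was 356, 635 with no filter on low values (22074 genes tested), 1361 by the cosine and 301 to 666 on leaving out a library. In WT 1 gene was called with no filter and 0 to 9 on leaving out a library, with 9 without the 20 h library. For the difference between genotypes 0 genes were called with a pseudocount of 0.01, a minimum of 1 RPKM, no filter, voom weights or the time point as replicate block, and in 13 of 16 fits that leave out a library, where the count ran from 0 to 2 (2 without the 20 h WT library); the cause was not tested.

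Of 1866 log2 differences of 99 named genes in KO under the 11 other settings and on leaving out each of the 8 libraries, 1855 kept their direction. Values within a day are not among them, and there 10 of the 99 genes, with a p above 0.05 each, had another sign in 1 day at least, such as Arntl (-0.04 in the second) and Hnf4a (-0.10 in the first). The remaining 11 of the 1866, in 8 genes with a small difference or a wide spread, turned on leaving out 1 library: Clock (-0.0043 without 24 h, -5.9e-05 without 32 h, range to 0.11), Bhlhe40 (-0.087 to 0.0041, the latter without 44 h), Bhlhe41 (-0.016 without 44 h, range to 0.20), Nr1d1 (-0.51 to 0.034, the latter without 12 h), AK053029 (-0.50 to 0.11, the latter without 12 h), Nr1d2 (-0.088 without 20 h, -0.052 without 32 h, -0.010 without 56 h, range to 0.40), Nfil3 (-0.0020 without 20 h, range to 0.095) and Nnat (-0.12 to 0.037, the latter without 48 h). Per3 reached an unadjusted p of 0.0515 and Cry2 of 0.122 at most under the alternatives, while Per2, Cry1, Hlf, Tef, Tspan4, Usp2 and Cys1 stayed under 0.02 in all of them. A pseudocount of 1 brought the differences of low genes nearer to 0, at 0.48 for Hlf, 0.38 for Per3, 0.85 for Pou5f1, 0.47 for Lin28a, 0.34 for Clec4a3, 0.24 for Ceacam1, 0.26 for Cpeb1, 0.38 for 1810010H24Rik and -0.24 for Abi3bp. With 1 library at each time point, noise between libraries of the same hour and day could not be estimated.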
